A study of Mus musculus with 6 samples.

Results

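The genes described here are 41 DNA replication and S phase genes of the mouse, chosen by name: the factors that license origins, the MCM helicase, the DNA polymerases and primase, the sliding clamp and its loader, the proteins that bind single strands and join fragments, the enzymes that supply nucleotides, and 4 regulators of S phase. They were among 12393 genes with a probe set annotated to a single symbol, and 76 of the 22626 probe sets other than controls belonged to them. The samples were whole retinas dissected at postnatal day 4 (P4) from 3 Nhlh2 knockout mice and 3 wildtype mice, all on a mixed C57/129 background, as 3 littermate pairs of 1 knockout and 1 wildtype each. How the knockout allele was made is not given in the sources used here. Nhlh2 encodes a neuronal basic helix-loop-helix transcription factor. Each retina sample was hybridised to 1 Affymetrix mouse 430A 2.0 array, so the number of arrays limits the precision. Probe sets of Nhlh2 itself were not analysed here, so the genotype labels were not checked against the targeted gene. A whole retina is a mixture, and fewer dividing cells cannot be told apart from less RNA per cell.

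DNA is copied once per cell cycle. The origin recognition complex, with Cdc6 and Cdt1, loads the Mcm2 to Mcm7 ring on DNA before S phase, and Cdc45 and the GINS proteins turn that ring into an active helicase. Primase and polymerase alpha start each strand, polymerases delta and epsilon extend it on the PCNA clamp, and flap endonuclease and ligase finish the lagging strand. In mouse retina, progenitor cells are still dividing in the days after birth, when rod photoreceptors, bipolar cells and Müller glia are formed, so transcripts of this machinery mark the cells that are still cycling.

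One array stood apart before any gene was considered. In knockout replicate 2 the signal of the 3′ Actb control probe set was 274 times that of the 5′ one, against 1.38 to 1.56 times on the other 5 arrays, and the Gapdh ratio was 15.6 against 0.698 to 0.838. Its median deposited signal was 9.0, against 51.4 to 95.6 elsewhere, and its rank correlation with the other arrays over all probe sets was 0.642 to 0.669, where the other 5 correlated at 0.947 or above. Comparisons of the 2 groups are therefore given with and without knockout replicate 2, and pair 2 is given apart from pairs 1 and 3. Wildtype replicate 1 differed in another respect: the summed scaled signal of 8 lens genes, mostly crystallins, was 14201 there, against 137, 1211 and 267 in the 3 knockout arrays and 150 and 195 in the other wildtype arrays. Crx, a photoreceptor transcription factor, read 5835 to 21747 over the 6 arrays, and Sox2, a progenitor transcription factor, 1828 to 2720. The highest value of each was that of knockout replicate 2. Other markers of these cells were not bright on every array. Pax6, a progenitor marker, read 226 in knockout replicate 2, against 3217 to 3460 elsewhere. Gnat1, a photoreceptor marker, was too dim to enter the tests below.

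Replication genes were well represented in the P4 retina. Signals were scaled so that the 75th percentile of each array was 500, and 1 probe set stood for each gene, the one with the highest mean. Of the 41 genes, 32 (78.0%) lay above the array median in all 3 wildtype arrays, against 51.2% of all genes with a probe set. A further 6 lay above it in 1 or 2 arrays (Cdc6, Mcm10, Cdc45, Pola2, Pole and Ccne2), and Orc1, Tyms and Ccne1 in none. Above the 75th percentile in all wildtype arrays were 12 genes (29.3%, against 25.4% of all genes). The median gene of the group stood at the 69.1 percentile of the wildtype arrays, against 55.2 for all genes. Signals of different probe sets also depend on their probes, so these places say how bright a probe set was and do not order the transcripts.

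**Figure D1:**
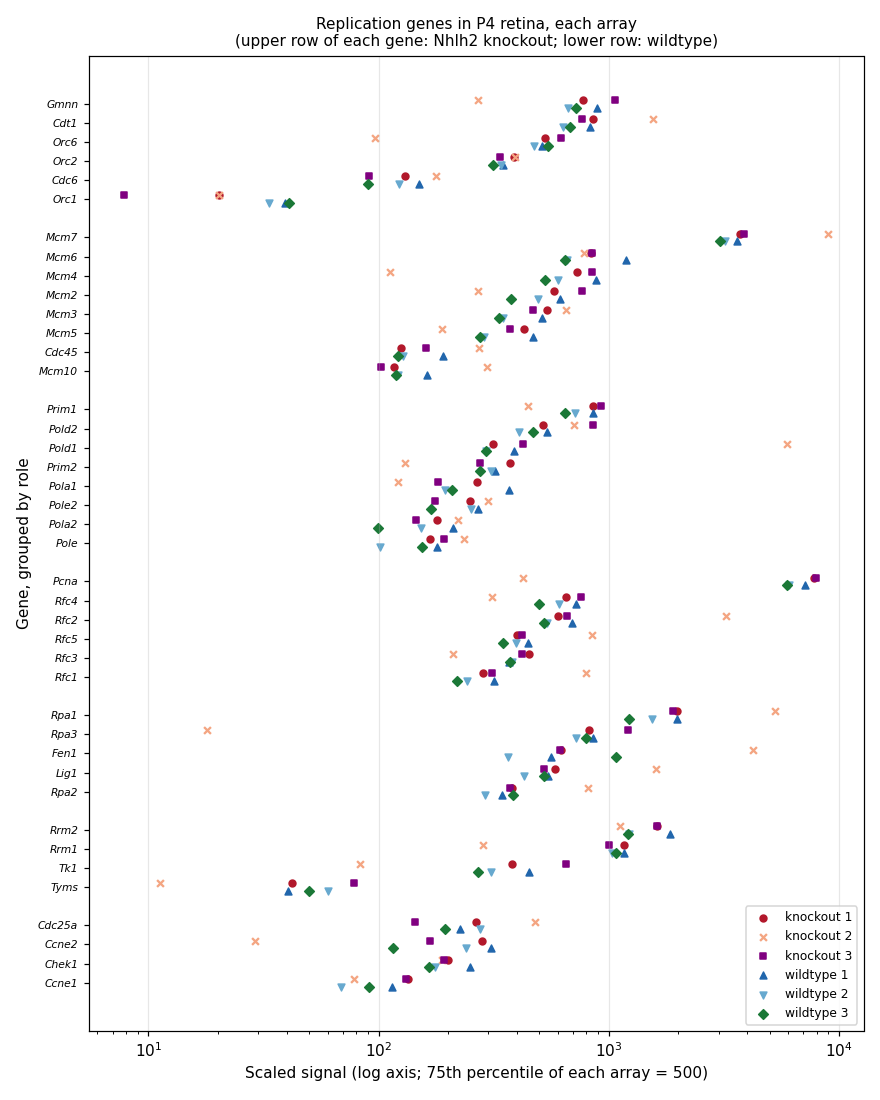
Scaled signal of the 41 replication genes on each of the 6 arrays, on a log axis, with 1 probe set per gene, genes grouped by role, and the knockout arrays drawn above the wildtype arrays of each gene. Pcna and Mcm7 lie far to the right, and the crosses of knockout replicate 2 lie away from the other 5 arrays for most genes.

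Because these genes are active in the same phase of the cell cycle, the promoter windows of the group were read for the octamers TTTCCCGC, TTTCGCGC, TTTGCCGC and TTTGGCGC on both strands, which are forms of the site bound by E2F factors, the regulators that switch on S phase genes. The windows run from 250 bases before to 50 bases after the RefSeq start site (GRCm38.p6). Of the 35 members with a window, 13 held at least 1 such octamer (37.1%), against 11 of 32 other replication genes (34.4%), 402 of 9887 genes on the array (4.07%) and 704 of 27025 genes in all (2.6%). The 13 were Orc1, Cdc6, Cdt1, Mcm3, Mcm5, Mcm6, Mcm7, Pola1, Pold1, Pole2, Rfc3, Lig1 and Cdc25a. A match is a run of letters and not a measured binding site. 4 stretches that lie wholly before the start site are shown, 1 or more for licensing, helicase and regulator genes, with the octamers in capitals. Mcm6 has 3 matches between bases -134 and -16 (chr1:128359721-128359839, minus strand) and Mcm5 has 2 between bases -177 and -118 (chr8:75109332-75109391, plus strand), where in each gene a match on one strand overlaps one on the other. Orc1 has 1 match between bases -51 and -1 (chr4:108579403-108579453, plus strand), and Cdc25a has 1 between bases -91 and -36 (chr9:109875488-109875543, plus strand).
Mcm6: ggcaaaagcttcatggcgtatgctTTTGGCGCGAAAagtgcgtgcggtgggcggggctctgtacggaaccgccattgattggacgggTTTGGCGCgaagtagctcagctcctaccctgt
Mcm5: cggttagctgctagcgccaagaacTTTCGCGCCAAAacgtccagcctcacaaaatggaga
Orc1: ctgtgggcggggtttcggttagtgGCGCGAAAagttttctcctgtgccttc
Cdc25a: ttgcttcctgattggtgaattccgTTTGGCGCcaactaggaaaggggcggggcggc

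The comparison of knockout with wildtype asked whether loss of Nhlh2 changed these transcripts. No replication gene passed the test. With all 6 arrays, 0 of 62 probe sets of the 36 members bright enough to test had a Benjamini-Hochberg adjusted p under 0.05 in limma, as had 0% of all 11610 probe sets, and 0 had an unadjusted p under 0.05, against 0.0689% of all probe sets. Without knockout replicate 2 the counts were again 0 by adjusted p (0% of all) and 0 by unadjusted p (0.672% of all). With the littermates as a replicate block and without knockout replicate 2, they were 0 (0% of all) and 0 (4.04% of all). The ordinary two-sample test also gave 0 member probe sets by adjusted p (0% of all) and 0 by unadjusted p (0.698% of all). Standard errors set this limit: the median standard error of a member's log2 difference was 0.42 with 6 arrays and 0.23 without knockout replicate 2. In the fit of 5 arrays the 95% interval of the difference held 0 for all 36 genes, and the bounds reached from -1.004 to 1.31 on the log2 scale. An exact permutation test of 3 arrays against 3 cannot give a p under 0.1.

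The direction of the values differed between the littermate pairs. In pair 1, 12 of the 36 genes were higher in the knockout (33.3%, against 47.7% of the 6924 genes tested), with a median difference of -0.08 on the log2 scale. In pair 3, 30 of 36 were higher in the knockout (83.3%, against 48.8%), with a median of 0.38. The medians over all genes were -0.01 in both pairs. In pair 2, which rests on knockout replicate 2, 20 of 36 were higher (55.6%, against 52.2%), and the differences ran from -4.45 to 4.27, with a median of 0.21 against 0.11 for all genes. With 1 array per genotype in each pair, these counts carry no test.

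**Figure D2:**
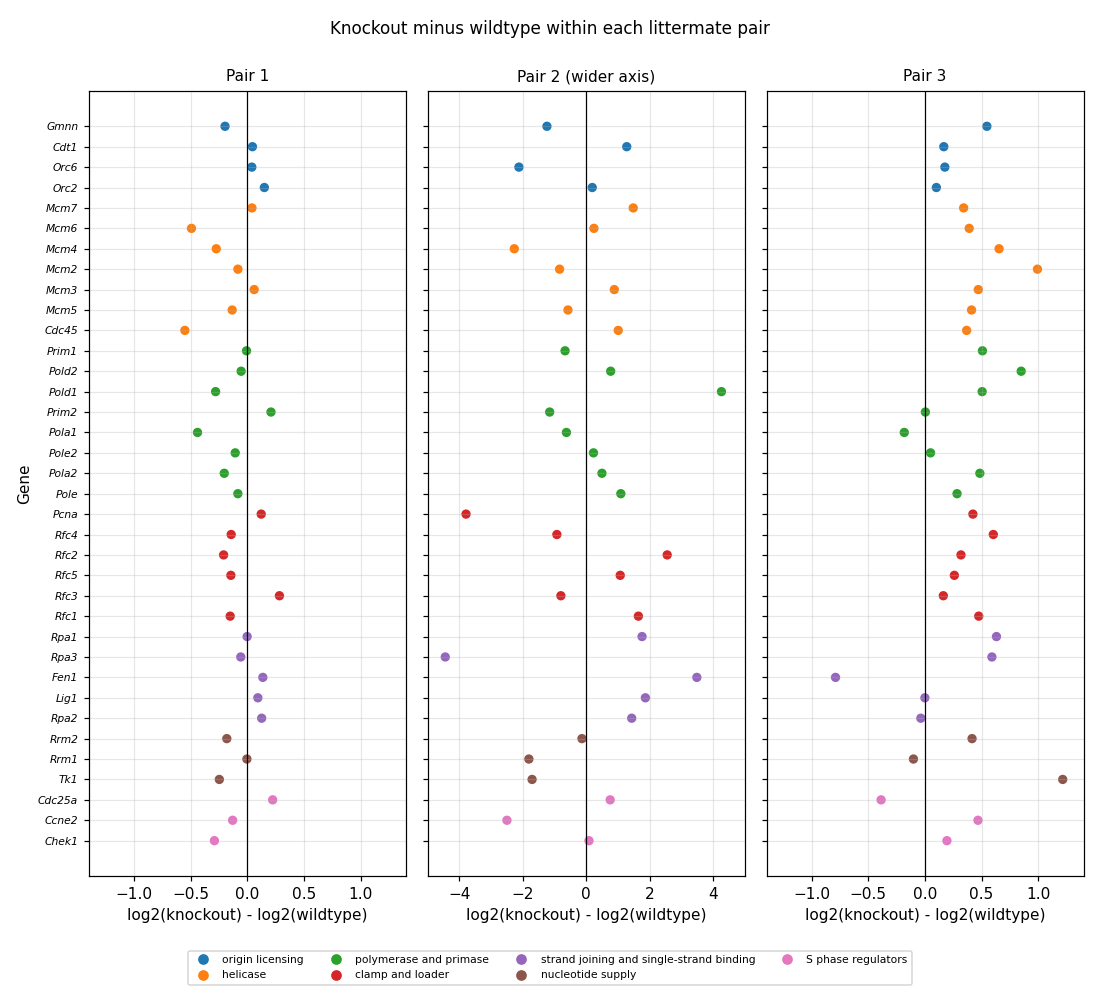
Difference between knockout and wildtype littermates on the log2 scale for the 36 tested genes, coloured by role, with pair 2 on a wider axis. Most points of pair 1 lie left of 0 (24 of 36) and most of pair 3 right of it (30 of 36), while pair 2 spreads from -4.45 to 4.27.

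Taking pairs 1 and 3 together, 22 genes were lower in the knockout of pair 1 and higher in that of pair 3 (61.1%, against 26% of all genes). A further 8 were higher in both (22.2%, against 22.8%), 2 were lower in both (5.6%, against 26.3%), and 4 were higher in pair 1 and lower in pair 3 (11.1%, against 24.9%). On the probe sets that stand for them, the genes higher in both were Orc2, Orc6, Cdt1, Mcm3, Mcm7, Prim2, Pcna and Rfc3. Pola1 and Rrm1 were the genes lower in both. At least 1 other tested probe set of Orc2, Cdt1, Mcm3 and Mcm7 was lower in the knockout of pair 1. A second Rrm1 probe set was higher in both pairs (0.06 and 0.70).

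The wildtype arrays also differed from each other in these genes. Wildtype replicate 1 was above replicate 2 in 34 of 36 genes (94.4%, against 55.3% of all genes; median 0.36) and above replicate 3 in 32 (88.9%, against 42.7%; median 0.38). Replicate 2 was above replicate 3 in 25 (69.4%, against 39.3%; median 0.06). Among the 5 arrays other than knockout replicate 2, the highest signal was in knockout replicate 1 for 6 genes (against 13.5% of all genes), in knockout replicate 3 for 12 (27.4%), in wildtype replicate 1 for 15 (15.8%), in wildtype replicate 2 for 1 (12%) and in wildtype replicate 3 for 2 (31.4%). The lowest was in knockout replicate 1 for 0 genes (18.1% of all genes), in knockout replicate 3 for 3 (20.3%), in wildtype replicate 1 for 1 (18%), in wildtype replicate 2 for 9 (23.4%) and in wildtype replicate 3 for 23 (20.2%). Between the knockout arrays other than replicate 2, 18 of 36 genes were higher in replicate 1 than in replicate 3 (against 42.1% of all genes), with a median difference of -0.01 (-0.08 for all genes), and single genes differed both ways, as with 379 and 651 for Tk1 and 281 and 167 for Ccne2. Measured from each gene's wildtype mean, the median gene lay at 0.16 in knockout replicate 1 and 0.17 in knockout replicate 3, against 0.25, -0.11 and -0.17 in wildtype replicates 1, 2 and 3. These 2 knockout medians lay below that of wildtype replicate 1 and above those of wildtype replicates 2 and 3. Knockout replicate 1 was above wildtype replicate 2 in 33 of 36 genes (against 53.4% of all genes) and above wildtype replicate 3 in 33 (against 41.3%), and knockout replicate 3 was above wildtype replicate 2 in 28 (against 59.7%). Wildtype replicate 1 is also the array with the lens signal, and the part of that tissue in its replication signals was not tested.

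**Figure D3:**
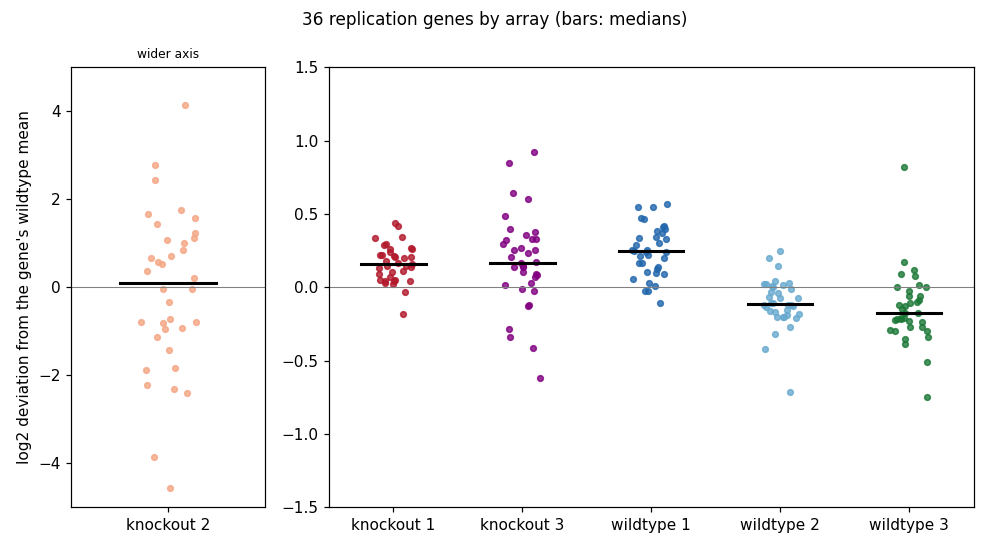
Deviation of the 36 genes from their own wildtype mean on each array, on the log2 scale, with knockout replicate 2 in a panel of its own with a wider axis and bars at the medians. The medians of knockout replicates 1 and 3 (0.16 and 0.17) lie between those of wildtype replicate 3 (-0.17) and wildtype replicate 1 (0.25).

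Over whole groups, 31 of 36 genes had a higher mean in knockout replicates 1 and 3 than in wildtype (86.1%, against 52.9% of all genes), with a median difference of 0.18 (0.01 for all genes). With knockout replicate 2 included the count was 21 (58.3%, against 51.2%) and the median 0.05 (0.02 for all genes). On the probe sets that stand for each gene, groups that did not overlap were few. Knockout replicates 1 and 3 were both above all 3 wildtype arrays for Mcm7, Pcna and Rfc3 (8.3%, against 5.73% of all genes) and both below for 0 genes (against 5.95%). All 3 knockout arrays were above wildtype for Mcm7 alone (2.8%, against 3.28%) and below for 0 (against 3.37%). Some other tested probe sets, of Mcm3, Mcm7, Prim1 and Rfc4, also had all 3 knockout arrays above wildtype and are described below. The share of all probe sets that do so was not counted, so these carry no comparison.

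All 4 tested origin licensing genes were higher in the knockout of pair 3 (0.10 to 0.55) and 3 of 4 in that of pair 1. Cdt1, which brings the helicase ring to origins, had 857, 1558 and 766 in the knockout arrays, against 830, 632 and 681 in wildtype (probe set 1424143_a_at). Without knockout replicate 2 its log2 difference was 0.19 ± 0.20 (SE). A second Cdt1 probe set (1424144_at) read 298, 24.7 and 419 in knockout and 312, 275 and 213 in wildtype, which gave 0.92 in pair 3, against 0.17 for the first. Gmnn, the inhibitor of Cdt1, had 776, 271 and 1060 in knockout, against 892, 662 and 721 in wildtype, and was the one tested licensing gene lower in the knockout of pair 1. On each of these probe sets the groups overlapped. Orc2 and Orc6, subunits of the origin recognition complex, averaged 334 ± 17.6 and 511 ± 36.3 in wildtype (SD, n = 3), and their pair 3 differences were 0.10 and 0.18. Orc1 and Cdc6 were too dim to test. The Orc1 probe set read 20.3, 20.2 and 7.84 in knockout and 39.2, 33.5 and 40.7 in wildtype, all below the array medians. Cdc6 read 131, 177.1 and 91.0 in knockout and 149, 122.6 and 89.7 in wildtype.

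The helicase genes were all higher in the knockout of pair 3 (7 of 7, 0.34 to 0.99) and mostly lower in that of pair 1 (higher in 2 of 7). Mcm7, a subunit of the ring, was among the brightest probe sets of the retina, at 3712, 8991 and 3858 in knockout and 3609, 3202 and 3042 in wildtype (1438320_s_at). These groups did not overlap, yet without knockout replicate 2 the log2 difference was 0.21 ± 0.18 (SE; unadjusted p = 0.287, limma). A second Mcm7 probe set, 1416031_s_at, also separated the groups, at 1178, 1816 and 1092 in knockout and 1028, 908 and 1016 in wildtype. The other 2 overlapped: 1416030_a_at read 1615, 399 and 1323 in knockout, against 1644, 1477 and 1199 in wildtype, and 1439269_x_at read 576, 1760 and 528 in knockout, against 602, 509 and 633 in wildtype. Mcm2 had the largest pair 3 difference of the ring, with 578, 269 and 768 in knockout, against 614, 494 and 378 in wildtype. Its pair differences were -0.08, -0.84 and 0.99. A second Mcm2 probe set (1434079_s_at) read 366 in the knockout of pair 3 and 464 in its wildtype littermate, which is the opposite direction. Mcm2 is singled out here after its values were seen.

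Among the other ring subunits, Mcm4 and Mcm6 averaged 671 ± 186 and 828 ± 309 in wildtype, and Mcm3 and Mcm5 399 ± 101 and 345 ± 109 (SD, n = 3). Another Mcm3 probe set (1426652_at) separated the groups, at 232, 262 and 247 in knockout and 209, 192 and 139 in wildtype. Its unadjusted p was the smallest of the group with the replicate block and without knockout replicate 2 (0.0571, limma; adjusted p = 0.9998). Mcm6 showed the spread between wildtype mice most clearly, with 837, 780 and 849 in knockout and 1185, 656 and 644 in wildtype. All 3 knockout values lay between the highest and the other wildtype values. Cdc45, the helicase cofactor, gave -0.55 in pair 1 and 0.37 in pair 3, and Mcm10, an initiation factor, was too dim to test at 117, 296 and 102 in knockout and 162, 121 and 119 in wildtype.

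Polymerase and primase genes differed by pair as well, with 1 of 8 higher in the knockout of pair 1 and 7 of 8 in that of pair 3. Pold2, a regulatory subunit of polymerase delta, had 519, 704 and 858 in knockout, against 539, 405 and 469 in wildtype (1448277_at). Its log2 difference was 0.52 ± 0.32 (SE) with 6 arrays and 0.50 ± 0.27 without knockout replicate 2 (unadjusted p = 0.153 and 0.108, limma; adjusted p = 0.766 and 0.9999). Only wildtype replicate 1 reached into the knockout range. Prim1, the catalytic primase subunit, had 851, 444 and 928 in knockout and 856, 714 and 648 in wildtype, where the groups overlapped. A second Prim1 probe set (1449061_a_at) separated them, at 506, 720 and 505 in knockout and 453, 360 and 499 in wildtype.

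Prim2, the large primase subunit, was the one gene of this role higher in the knockout of pair 1, at 374, 130 and 276 in knockout and 322, 308 and 275 in wildtype. Pola1, the catalytic subunit of polymerase alpha, was the one lower in pair 3, at 267, 121 and 181 in knockout and 368, 195 and 208 in wildtype. The other genes of the role gave pair 3 differences of 0.50 (Pold1, catalytic subunit of polymerase delta), 0.48 (Pola2, a polymerase alpha subunit), 0.28 (Pole, catalytic subunit of polymerase epsilon) and 0.05 (Pole2, its second subunit). In pair 2, Pold1 gave 4.27, the widest upward value of the group, from 5960 in knockout against 294 in wildtype.

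The clamp and its loader were all higher in the knockout of pair 3 (6 of 6, 0.16 to 0.60) and in 2 of 6 in pair 1. Pcna, the sliding clamp and a common marker of cycling cells, had 7778, 424 and 7980 in knockout, against 7144, 6069 and 5948 in wildtype (1417947_at). Knockout replicates 1 and 3 lay above every wildtype array, while knockout replicate 2 lay far below. The log2 difference was -1.08 ± 1.11 (SE) with 6 arrays and 0.31 ± 0.18 without that array, with a 95% interval of -0.13 to 0.75.

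Rfc3, a clamp loader subunit, had the narrowest wildtype range of the tested genes on the probe set that stands for it (1432538_a_at). It read 451, 211 and 420 in knockout and 368, 378 and 374 in wildtype. Its log2 difference without knockout replicate 2 was 0.21 ± 0.17 (SE), so the small wildtype spread did not make it a call in limma, which shares the spread between genes. A second Rfc3 probe set (1423700_at) had a wider wildtype range, with 389, 186 and 376 in knockout and 327, 360 and 272 in wildtype. Rfc4, another loader subunit, held the smallest unadjusted p of the group in the fit of 6 arrays, from the probe set 1438161_s_at: it read 499, 666 and 407 in knockout and 378, 341 and 310 in wildtype, and the groups did not overlap. The share of all probe sets that separated in this way was not counted. The log2 difference was 0.57 ± 0.32 (SE; unadjusted p = 0.118, adjusted p = 0.766, limma) with 6 arrays and 0.38 ± 0.19 (SE; unadjusted p = 0.0930, adjusted p = 0.9999) without knockout replicate 2. The brighter Rfc4 probe set, 1424321_at, overlapped, at 652, 312 and 761 in knockout and 721, 606 and 496 in wildtype. Rfc1, the large subunit, had 284, 796 and 310 in knockout and 317, 243 and 219 in wildtype, and Rfc2 and Rfc5 averaged 586 ± 95.2 and 395 ± 48.5 in wildtype (SD, n = 3).

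Strand joining and single-strand binding genes were split on the probe sets that stand for them. In pair 1, 3 of 5 were higher in the knockout, and in pair 3, 2 of 5. Rpa1, the large subunit of the single-strand binding protein RPA, had 1973, 5251 and 1905 in knockout, against 1975, 1536 and 1225 in wildtype (1437309_a_at). Its pair 3 difference of 0.63 was close to that of Rpa3, the small subunit, at 0.59, whereas Rpa2 gave -0.04 and Lig1, the ligase that seals Okazaki fragments, gave -0.0012. Second probe sets gave other pair 3 values, 0.09 for Rpa1 (1423293_at) and 0.22 for Rpa2 (1454011_a_at).

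Rpa3 had 817, 17.9 and 1210 in knockout and 852, 723 and 798 in wildtype, so knockout replicate 2 was far below the other arrays there. On the probe sets that stand for Rpa1, Rpa2, Lig1 and Fen1 it was above every other array. On second probe sets of Rpa1, Rpa2 and Fen1 it was the lowest array, at 392, 143 and 316. Fen1, the flap endonuclease, gave -0.79 in pair 3, with 618, 4249 and 617 in knockout and 560, 363 and 1079 in wildtype. Wildtype replicate 3 was the high one among the wildtype arrays. The second Fen1 probe set (1421731_a_at) gave 0.20 in pair 3.

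Among the enzymes that supply nucleotides, Tk1, the S phase thymidine kinase, had the largest pair 3 difference of the 36 genes, 1.22, and is named for that after its values were seen. It had 379, 83.0 and 651 in knockout and 453, 307 and 271 in wildtype, and the groups overlapped. Without knockout replicate 2 its difference was 0.55 ± 0.32 (SE; 95% interval -0.22 to 1.31). Rrm2, the regulated subunit of ribonucleotide reductase, had 1627, 1117 and 1618 in knockout and 1848, 1226 and 1209 in wildtype.

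Rrm1, the large subunit of the reductase, had 1165, 285 and 1001 in knockout, against 1168, 1037 and 1076 in wildtype (1415878_at), and was lower in the knockout of all 3 pairs, with differences of -0.0040, -1.81 and -0.10. A second Rrm1 probe set (1448127_at) read 1553, 17.9 and 588 in knockout and 1485, 1317 and 356 in wildtype, and so gave 0.70 in pair 3. Tyms, thymidylate synthase, was too dim to test on the probe sets annotated to it alone, at 42.2, 11.2 and 78.4 in knockout and 40.5, 60.6 and 49.96 in wildtype. A probe set that lists Tyms with other genes was left out.

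Of the S phase regulators, 2 of 4 lay above the array median in all wildtype arrays. Ccne2, a cyclin partner of Cdk2, had 281, 29.1 and 167 in knockout and 309, 239 and 116 in wildtype. Cdc25a, a phosphatase that activates Cdk2, had 266, 478 and 144 in knockout and 226, 276 and 193 in wildtype (1417131_at). On that probe set it was the one regulator higher in the knockout of pair 1 and lower in that of pair 3. A second Cdc25a probe set (1417132_at) went the other way in both pairs, with -0.70 in pair 1 and 0.28 in pair 3. It read 108, 316 and 192 in knockout and 185, 111 and 156 in wildtype. Chek1, the checkpoint kinase, averaged 197 ± 45.6 in wildtype (SD, n = 3) and gave -0.29 and 0.19 in pairs 1 and 3. Ccne1, the other E cyclin, was too dim to test at 134, 78.5 and 131 in knockout and 114, 68.4 and 90.7 in wildtype.

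Probe sets of the same gene allowed a check of each pair, since they read the same transcript or its variants. In 19 members with at least 2 tested probe sets, the median range between probe sets of a gene was 0.20 on the log2 scale in pair 1 and 0.50 in pair 3, against 0.24 and 0.40 over 2550 genes. In pair 2 it was 2.07 (2.08 over all genes), wider than any member's difference in pairs 1 and 3. In pair 3 the probe sets of a gene differed in sign for 6 of 19 members (31.6%, against 55.8% of all such genes), and in pair 1 for 11 (57.9%, against 55.0%). The 6 in pair 3 were Cdc25a, Fen1, Mcm2, Mcm7, Rpa2 and Rrm1. The 11 in pair 1 were Cdc25a, Cdt1, Fen1, Mcm3, Mcm7, Orc2, Prim1, Rfc1, Rfc4, Rrm1 and Rrm2. The probe sets that stand for Pold1, Fen1 and Rrm2 end in _x_at and those for Mcm3, Mcm7 and Chek1 in _s_at, suffixes that Affymetrix gives to probe sets that may also read related sequences, so their values are less certain.

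**Figure D4:**
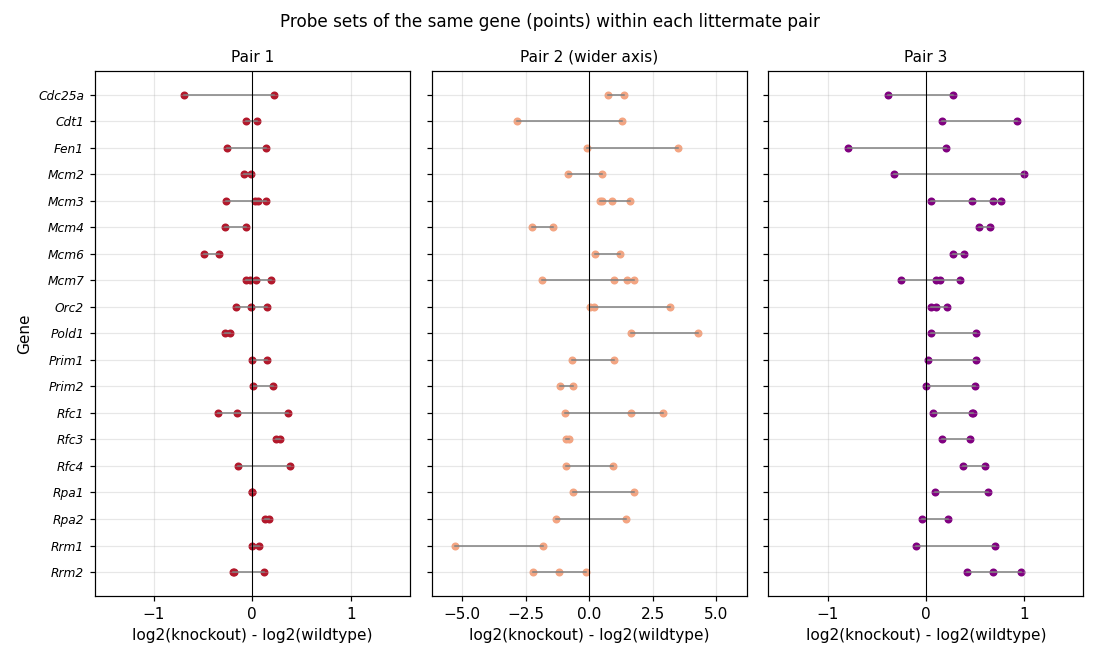
Difference between knockout and wildtype littermates for each tested probe set of the 19 genes with more than 1, on the log2 scale, with a line from the lowest to the highest probe set and a wider axis for pair 2. The median length of a line is 0.20 in pair 1, 2.07 in pair 2 and 0.50 in pair 3.

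Other genes of the replication machinery were mostly higher in the knockout of pair 3 and evenly divided in pair 1, which was not tested as a difference. Of 42 listed genes, 33 had a probe set and 32 were tested, with 0 called in either fit. In pair 1, 16 of 32 were higher in the knockout (50%, against 47.7% of all genes). In pair 3, 24 of 32 were (75%, against 48.8%), and the medians were -0.01 and 0.26. Chaf1b, a subunit of the chromatin assembly factor that follows the fork, had the smallest unadjusted p of that list in both fits: it read 279, 572 and 313 in knockout and 205, 208 and 185 in wildtype. Every knockout array was higher than every wildtype array, with a log2 difference of 0.84 ± 0.36 (SE; unadjusted p = 0.0544, adjusted p = 0.766, limma) with 6 arrays and 0.53 ± 0.18 (SE; unadjusted p = 0.0212, adjusted p = 0.9999) without knockout replicate 2. All 3 knockout arrays were above wildtype for 2 of the 32 genes, Chaf1b and Pold3, against 3.28% of all genes. Knockout replicates 1 and 3 were both above all wildtype arrays for 7 of the 32 (against 5.73% of all genes). They were both below for 0 (against 5.95%). Ctps, which makes CTP, read 633, 957 and 575 in knockout and 576, 429 and 346 in wildtype, and Dnmt1, the maintenance DNA methyltransferase, 544, 1848 and 952 in knockout and 532, 570 and 692 in wildtype.

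The marker lists of retinal and other cells did not all go one way within a pair. Of 12 progenitor markers, 2 were higher in the knockout of pair 1 and 8 in that of pair 3 (medians -0.10 and 0.27). Of 8 tested photoreceptor markers, 5 were higher in the knockout of pair 1 and 1 in that of pair 3 (medians 0.10 and -0.32). Of 4 pigment epithelium markers, 0 were higher in the knockout of pair 1 and 3 in that of pair 3 (medians -0.46 and 0.44). Of 5 amacrine and horizontal cell markers, 1 was higher in the knockout of pair 1 and 0 in that of pair 3 (medians -0.18 and -0.32), and of 7 ganglion cell markers 2 and 3 were (medians -0.11 and -0.19). Of 3 bipolar and glial markers 1 and 2 were higher (medians -0.0013 and 0.37), and of 5 vessel, blood and microglia markers 3 and 3 (medians 0.0010 and 0.12). The summed scaled signal of 5 pigment epithelium markers was 7478, 24556 and 12950 in the knockout arrays and 9698, 9531 and 12487 in wildtype. Ttr made up most of each sum, at 4726, 20453 and 9861 in knockout and 5809, 6255 and 10268 in wildtype. Tyrp1, Dct and Pmel were each lowest of the wildtype arrays in replicate 3. The median of the 4 tested markers was 1526, 1349 and 907 in wildtype replicates 1, 2 and 3. The summed scaled signal of 9 photoreceptor markers was 37133, 78231 and 46599 in the knockout arrays and 34755, 40089 and 58817 in wildtype. Among the 5 arrays other than knockout replicate 2, wildtype replicate 3 had the highest sum. In that same wildtype array 23 replication genes were lowest of the 5 arrays. The summed signal of the 12 progenitor markers was 21674, 88729 and 29548 in knockout and 23266, 19733 and 25880 in wildtype. Ccnd1 alone gave 6101, 56289 and 12212 of these in knockout and 6694, 4585 and 9977 in wildtype. The median progenitor marker went another way: it read 1619, 1800 and 1776 in knockout and 1688, 1543 and 1062 in wildtype. By that measure wildtype replicate 3 was the lowest array. The part of cell composition in the pair differences was not tested.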

How the data were processed

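The authors processed the arrays with MAS 5.0 and deposited linear signal intensities without a common scale between arrays. Of 22690 probe sets, 64 controls were left out; of the others, 20380 carried 1 gene symbol in the platform annotation, 691 several and 1555 none. Each array was scaled to a 75th percentile of 500, 16 was added, and log2 taken, so fold changes of dim probe sets are understated. Probe sets above the array median in at least 3 of 6 arrays were tested (11610) with limma 3.58.1 in R 4.3.3 (lmFit, eBayes, Benjamini-Hochberg over all of them, threshold 0.05), which was tested on simulated data; 1 probe set per gene, the one with the highest mean log2 value over 6 arrays, gave 6924 genes. The 5 members without a tested probe set were Orc1, Cdc6, Mcm10, Tyms and Ccne1. Figures and counts used Python 3.11.15 with numpy 2.4.6, pandas 2.3.3, scipy 1.17.1 and matplotlib 3.10.9.

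Replicate numbers pair littermates according to the series' design text. Deviations from the group means correlated between littermates at 0.29, -0.14 and 0.18 in pairs 1, 2 and 3 with 6 arrays, and without knockout replicate 2 at 0.49 and 0.73 in pairs 1 and 3, where with 2 knockout arrays these values are not independent. Knockout replicate 1 correlated more with wildtype replicate 2 than with its littermate (0.38 with 6 arrays, 0.64 without knockout replicate 2). Knockout replicate 2 correlated most with wildtype replicate 3 (0.16). The pairing therefore rests on the design text alone. Every member was named; values on every array were given for the genes of each role with the highest wildtype level, the smallest p or a sign unlike the rest of the role. Members, lists and tests were chosen with earlier results of these data known. Promoter windows and their coordinates are those of RefSeq, GRCm38.p6. Alternatives of scaling, constant, filter, probe set choice, array weights, arrays left out and the replicate block were run.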

Additional observations from a re-analysis of the deposited data

How the results depend on the processing

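No probe set, of a member or otherwise, reached an adjusted p under 0.05 under any of the 20 alternative fits (limma or the ordinary two-sample test), among them the replicate block with 6 arrays (0 called; 15 with an unadjusted p under 0.05) and the replicate block without knockout replicate 2 (0 called; 469). Without a filter, 0 of 22626 probe sets were called (262 unadjusted). The lowest adjusted p of a member was 0.447, for the signals as deposited. No call of a member changed with the block.

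The number of members higher in the knockout (21 of 36) ran from 17 to 31 when each array was left out in turn, and their median difference (0.05) from -0.09, without wildtype replicate 3, to 0.19, without wildtype replicate 1; it was 0.18 without knockout replicate 2. Leaving out knockout replicate 2 gave 32 higher with quantile normalization, 28 with the replicate block and 31 when the probe set was also chosen without that array, an alternative added after the data were seen. Knockout replicate 2 thus moved 16 of 36 signs, wildtype replicate 3 moved 4.

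Scaling shifted all genes: the median difference of all genes was 0.02 as scaled here, -0.11 with median scaling, -0.12 with the trimmed mean and -1.07 for the signals as deposited. Members followed it, with medians of -0.08, -0.09 and -0.93. For the signals as deposited 1 member was higher over 6 arrays, 4 in pair 1 and 1 in pair 2, where the median was -2.70. The pair 2 median (0.21) was -0.25 with median scaling and -0.25 with the trimmed mean, -0.62 for the 32 genes with plain probe sets, and 0.76 for the 24 genes above the median on all 6 arrays. For those 24 the median over all arrays was 0.30, and 19 were higher in the knockout of pair 3. Over all genes kept by that filter the median was 0.13, and 61.0% were higher in the knockout. The filter removes every gene dim in knockout replicate 2, so the selection itself biases its pair 2 and 6-array medians upward. In pairs 1 and 3 the medians moved by less than 0.227, the spread of the members' median between wildtype arrays, under every alternative run. With the 75th percentile as the level, 12 members were above it in all wildtype arrays, against 32 above the median. Signals as deposited carry no common scale, and the filter on all 6 arrays selects as said above. The cause of the other changes was not tested. Signal limits 5 members, which were too dim to test.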
